A study of Solanum lycopersicum with 24 samples.

Results

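The response to drought was measured in leaves of a tomato (Solanum lycopersicum) genotype labelled as drought susceptible. It was read from 6 of the 24 Affymetrix arrays of the series, chosen by their titles. The 3 treated arrays came from plants that had gone 7 days without water, and the 3 control arrays from plants under normal greenhouse conditions. All plants were at the flowering stage, and pot growth was common to both groups. The other arrays held a tolerant genotype under the same drought design, with 3 treated and 3 control arrays, and a heat experiment. The labels name neither genotype beyond its susceptibility and do not say whether replicates came from separate plants, so the spread behind each p-value is that between these arrays and may be technical.

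Plants that lose water close their stomata, stop expanding their leaves and accumulate protective proteins and solutes. The hormone abscisic acid drives much of this programme, through protein kinases that type 2C phosphatases hold back and through bZIP and DREB transcription factors. Leaf growth rests on cell division and on enzymes that loosen the cell wall, such as expansins and xyloglucan endotransglucosylase-hydrolases (XTHs). Ethylene, jasmonate and auxin pathways meet this programme, and several of their targets are also known from defence against pathogens and insects.

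Levels are log2 signals per probe set, deposited after RMA, and every difference is treated minus control on the log2 scale, so a value of 1 is a doubling of signal. A probe set was called higher or lower at a limma adjusted p under 0.05 with a difference of at least 1. Replicates were close, with correlations of 0.998 to 0.999 between treated arrays and 0.997 to 0.998 between control arrays, against 0.878 to 0.886 between the groups. The number of arrays limits the precision. The signal of 3' minus 5' control probe sets, a measure of RNA integrity averaged over gapdh, ef1a and actin, was 0.700 to 0.793 on treated arrays and 1.12 to 1.37 on control arrays. It therefore moved with the treatment throughout, and its part in any difference was not tested. Where at least 2 of the 3 arrays of the dimmer group lay at or under the array's 95th percentile of 63 reporter probe sets, which match no tomato gene, the difference is given as a bound.

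The susceptible leaves changed widely. Of 10038 probe sets, 2611 were called (26.0%), of which 1371 were higher (13.7%) and 1240 lower (12.4%) in treated leaves. At an adjusted p under 0.05 alone 7501 (74.7%) passed, and the arrays of both groups did not overlap for 7770 (77.4%). The median difference was 0.06, with quartiles at -0.40 and 0.56.

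Although more probe sets rose than fell, the large differences were mostly decreases. A difference of at least 2 was seen upward in 366 probe sets and downward in 562. At 4 the counts were 43 upward and 161 downward, and at 5 they were 16 and 95. These counts kept the same order after repeated quantile normalization, with 44 and 158 at 4, and after centring arrays on their medians, with 40 and 163. The called decreases ended near background more often: 334 of 1240 (26.9%) had treated arrays in the reporter range, while 177 of 1371 increases (12.9%) had control arrays there. In these bulk leaf samples fewer cells of a type and less RNA per cell cannot be told apart.

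**Figure D1:**
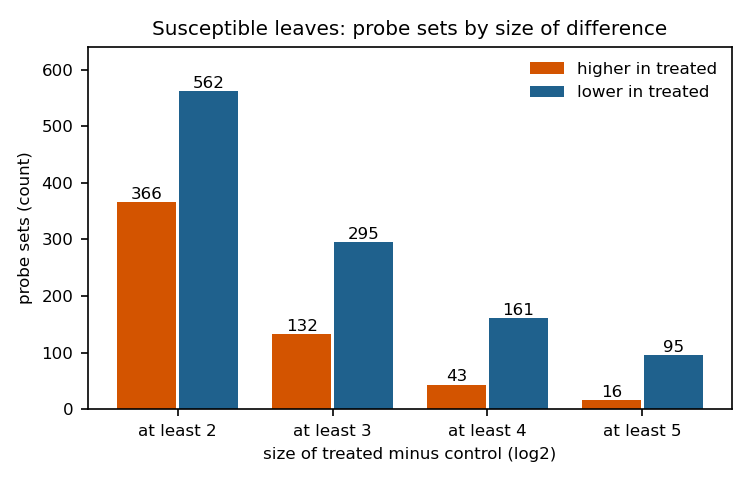
Number of probe sets (vertical axis) whose treated minus control difference reached at least 2, 3, 4 or 5 on the log2 scale (horizontal axis), for those higher in treated leaves (orange) and those lower (blue). Decreases outnumber increases at every size, 161 to 43 at 4 and 95 to 16 at 5.

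Gene symbols were available for 411 genes, taken from the authors' deposited tables. Per the file headers, the drought table holds probe sets chosen on these same samples, and the other table probe sets chosen on the heat samples, by an analysis of variance and a fold threshold met in at least 1 genotype. Counts among these genes are therefore not independent evidence of a direction. Of the 411 genes 230 were called (56.0%), 113 higher (27.5%) and 117 lower (28.5%), with a median difference of 0.08. The counts of each list below are to be read against these shares, which are not repeated each time. A count near them is no result about the list, and no list as such was tested.

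The largest increases named a carbonic anhydrase, a secreted protease and several pathogenesis-related (PR) proteins. The carbonic anhydrase ca3, which interconverts CO2 and bicarbonate, stood at 11.33, 11.52 and 11.49 on treated arrays and at 5.35, 4.94 and 4.55 on control arrays. The difference was 6.50 ± 0.17 (SE; adjusted p = 3.08e-09). The papain-like protease pip1 had 11.22, 11.22 and 11.23 on treated arrays against 5.00, 5.12 and 4.85 on control arrays, a difference of 6.23 ± 0.08 (adjusted p = 3.95e-11). For both genes the groups lay far apart and the treated arrays were close to each other.

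The deepest decrease was that of ext, an endo-xyloglucan transferase that cuts and rejoins the hemicellulose of growing walls. It stood at 4.26, 4.29 and 3.96 on treated arrays, within the reporter range, and at 12.01, 11.86 and 11.81 on control arrays. The difference was -7.49 or lower (adjusted p = 4.95e-11). The genes LOC543672 (-6.55) and LOC543656 (-5.99 or lower), whose titles give no product, followed. In all of the 30 genes with the largest differences, 15 in each direction, the treated and control arrays did not overlap, as the rule that chose them required.

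**Figure D2:**
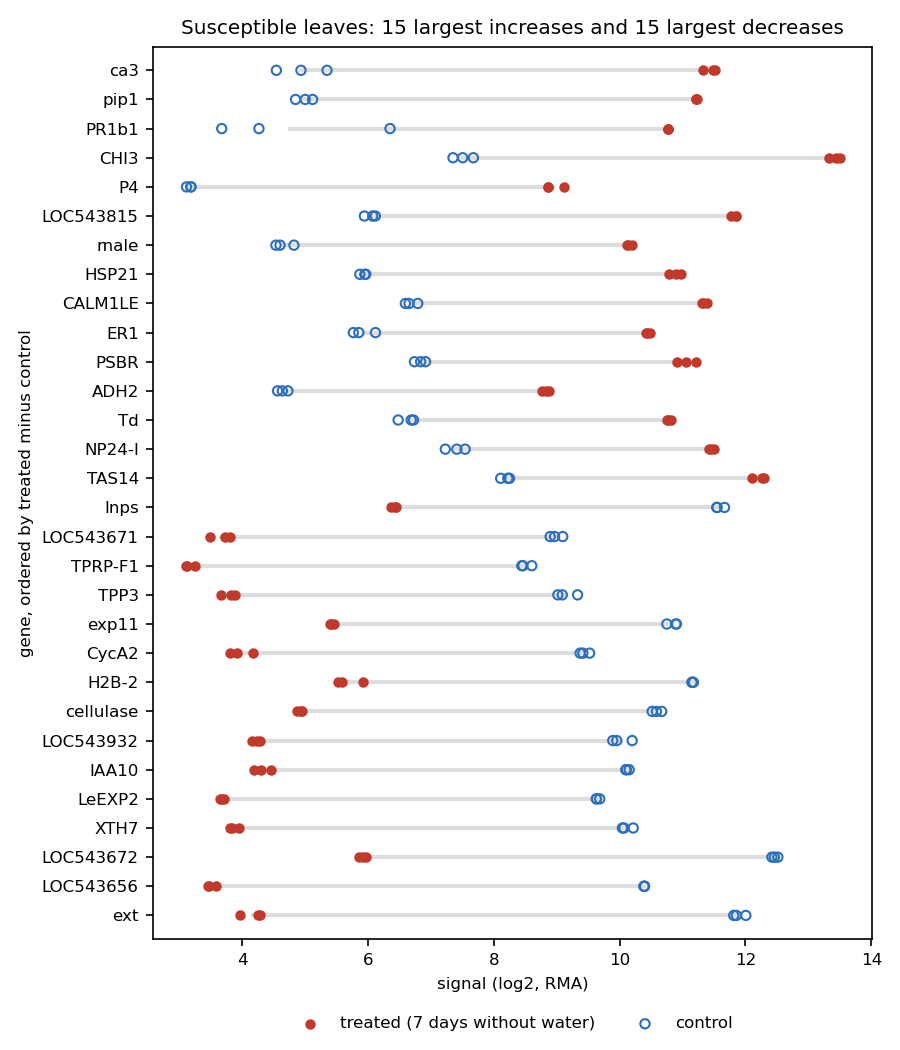
Signal of each array (horizontal axis, log2) for the 15 genes with the largest increases and the 15 with the largest decreases (vertical axis), with 3 treated arrays as filled red points and 3 control arrays as open blue points. Treated and control points are separate for every gene shown, and PR1b1 has the widest control group, with arrays at 3.68, 4.27 and 6.35.

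Cell division genes, which copy and package DNA and drive the cell cycle, were lower. Of 13 genes 10 were called lower and 1 higher, with a median of -3.48. The histone H2B-2 had 5.52, 5.92 and 5.59 on treated arrays against 11.16, 11.15 and 11.17 on control arrays, a difference of -5.48 ± 0.10 (adjusted p = 3.47e-10). The cyclin CycA2, which acts in DNA synthesis and mitosis, had 4.18, 3.81 and 3.92 on treated arrays against 9.42, 9.37 and 9.52 on control arrays (-5.04 or lower). The histone H4 gene LOC544081 changed by -4.77 and the plant-specific mitotic kinase cdkB2 by -4.03. The exception was LOC544142, titled as similar to linker histone H1, at 1.07. Without control replicate 3 its value was 0.99, and it was then no longer called.

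Cell wall genes moved in both directions. Of 10 XTH and related transferases 5 were lower and 1 higher (median -0.86). Besides ext, XTH7 had 3.82, 3.84 and 3.96 on treated arrays against 10.05, 10.22 and 10.07 on control arrays (-5.71 or lower), and XTH9 and XTH16 changed by -3.57 and -3.46. The higher member was XTH5, at 10.50, 10.38 and 10.48 on treated arrays and 8.93, 8.94 and 8.97 on control arrays (1.51 ± 0.06). These transferases therefore did not move as one.

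Of 7 expansins, proteins that loosen walls of enlarging cells, 5 were lower and none higher (median -2.20). LeEXP2 had 3.65, 3.71 and 3.67 on treated arrays against 9.64, 9.69 and 9.63 on control arrays (-5.25 or lower). The expansin exp11 had 5.42, 5.40 and 5.45 on treated arrays against 10.89, 10.90 and 10.75 on control arrays (-5.42 ± 0.06). EXPA4 changed by -2.51 and exp9 by -2.20. The remaining members were LeEXP1, at 0.56 and under the threshold of 1, and the beta-expansin LOC100134906, in the reporter range throughout; they were looked up after their values were seen.

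Among 15 glycosidases and pectin enzymes 7 were lower and 5 higher (median -0.68). The largest decreases were those of endoglucanases, which cut glucan chains of the wall. The gene named cellulase had 4.88, 4.96 and 4.93 on treated arrays against 10.52, 10.59 and 10.67 on control arrays (-5.67 ± 0.06), and Cel2 changed by -4.80. Cel1 changed by -4.78 or lower and LOC543671 by -4.58 or lower. The largest increases were those of beta-galactosidases and an arabinofuranosidase, which trim side chains of wall polymers. The beta-galactosidase tEG3 had 10.57, 10.55 and 10.57 on treated arrays against 6.87, 6.97 and 6.81 on control arrays (3.68 ± 0.06). TBG1 changed by 2.28, TBG3 by 2.13 and the arabinofuranosidase LeARF1 by 1.87.

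Of 5 extensins and wall proteins 3 were lower and 1 higher (median -1.71). The arabinogalactan protein gene LOC778328 changed by -4.64 and the class II extensin LOC544060 by -4.42, while the extensin LOC544158 changed by 1.33. The extensin-like LOC543740 changed by -0.63 or lower, and no difference is given for the class I extensin LOC544058, which was in the reporter range throughout. The proline-rich TPRP-F1, on no list, had 3.11, 3.13 and 3.25 on treated arrays against 8.61, 8.46 and 8.45 on control arrays (-4.10 or lower).

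Auxin genes were lower among the Aux/IAA repressors. Of 12 auxin genes 5 were lower and 3 higher (median -0.37), and the 5 lower ones were all Aux/IAA genes, short-lived repressors that auxin itself induces. IAA10 had 4.47, 4.30 and 4.20 on treated arrays against 10.11, 10.15 and 10.10 on control arrays (-5.72 or lower, adjusted p = 6.43e-11). IAA11 changed by -3.56 or lower, IAA7 by -3.65 and IAA9 by -2.65. The higher members were the auxin binding protein ERabp1 (1.24), the response factor ARF2 (1.23) and the kinase LOC543684 (1.08). LOC543684 was not called when all 12 drought arrays set the spread (adjusted p = 0.0543).

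Gibberellin enzymes, which set growth through hormone synthesis and breakdown, moved in both directions. Of 6 genes for gibberellin and brassinosteroid 2 were higher and 3 lower (median -0.13). The synthesis gene 20ox-3 had 6.40, 6.24 and 6.26 on treated arrays against 3.00, 2.76 and 2.86 on control arrays, which lay in the reporter range (at least 2.01). Its relative 20ox-1 changed by -1.56 or lower, and SlGA2ox3, which inactivates gibberellins, by -3.35 or lower. Dwarf, an oxidase of brassinosteroid synthesis, changed by 1.67. LeGAI, a relative of the DELLA repressors of gibberellin response, changed by -1.12 and was just under the threshold without control replicate 2 (-0.998). GRAS1 changed by 0.86, under the threshold.

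Of 24 transcription factors 8 were lower and 5 higher (median -0.06). LeT6, a class I knotted homeodomain factor of meristems, changed by -2.51 or lower, and the gene LOC543604 for phantastica, which patterns leaves, by -2.80. The HD-ZIP gene THOM1 changed by -2.82 or lower and the MYB-like THM6 by -3.61. Outside the naming rule, and picked after their values were seen, 2 TCP factors were also lower, TCP3 (-2.52) and lanceolate (-2.38), a regulator of leaf complexity.

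The increases included factors known from dehydration and defence. WRKY2 had 11.53, 11.60 and 11.54 on treated arrays against 7.98, 8.09 and 7.98 on control arrays (3.54 ± 0.06), though its deposited title is that of a hypothetical protein. The bZIP factor ZIP changed by 2.22, DREB1 by 1.62 and the bell-like BL3 by 1.47. DREB1 had 8.05, 7.89 and 7.93 on treated arrays and 6.45, 6.21 and 6.36 on control arrays. It belongs to the factors that bind the dehydration-responsive element.

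PR proteins, secreted or vacuolar products of defence, were higher in most cases. Of 16 genes 11 were higher and 1 lower (median 2.32), against 27.5% and 28.5% of all genes with a symbol. The chitinase CHI3 had 13.34, 13.45 and 13.50 on treated arrays against 7.51, 7.68 and 7.35 on control arrays (5.91 ± 0.09, adjusted p = 1.26e-10). P4, a PR-1 protein, had 8.86, 8.86 and 9.12 on treated arrays against 3.19, 3.12 and 3.19 on control arrays (at least 4.66). PR1b1, another of this family, had 10.77, 10.78 and 10.77 on treated arrays against 3.68, 4.27 and 6.35 on control arrays (at least 5.77, adjusted p = 1.2e-05). Its control replicate 3 stood well above the other two, and without it the fitted difference was 6.80 in place of 6.01.

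The osmotin-like NP24-I, of the PR-5 family that is also known from osmotic stress, had 11.42, 11.45 and 11.50 on treated arrays against 7.55, 7.23 and 7.41 on control arrays (4.06 ± 0.08). LOC543878, titled PR5-like, was the lower one, at 4.85, 5.08 and 4.93 on treated arrays and 7.73, 7.58 and 7.96 on control arrays (-2.80 ± 0.11). Both genes thus had separate groups, in opposite directions.

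Of 13 proteases 5 were higher and 5 lower (median 0.62). After pip1, the largest increase was that of P69B, a subtilase of the defence response, with 7.97, 7.95 and 8.01 on treated arrays against 4.01, 4.05 and 4.35 on control arrays (at least 3.64). The aminopeptidase lap2 changed by 1.66 and the subtilase SBT1 by at least 1.20. Other subtilases went down: SBT2 had 5.40, 5.38 and 5.38 on treated arrays against 9.37, 9.38 and 9.58 on control arrays (-4.06 ± 0.07), sbt4a changed by -3.09 and sbt3 by -2.37. The dimmer probe set of sbt4a moved in the opposite direction (at least 1.36). PR-P69 changed by -1.99.

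Wound-inducible proteins and proteinase inhibitors, which block digestive enzymes of insects, were also mixed, with 5 of 10 higher and 4 lower (median 0.78). ER1, titled as a proteinase inhibitor I, had 10.42, 10.44 and 10.48 on treated arrays against 5.77, 6.12 and 5.86 on control arrays (4.53 ± 0.09). Threonine deaminase, Td, an enzyme of isoleucine synthesis that also acts against caterpillars, had 10.75, 10.77 and 10.82 on treated arrays against 6.69, 6.48 and 6.73 on control arrays (4.15 ± 0.08). The inhibitor LOC543954 changed by 3.86, but its other probe set moved in the opposite direction. Decreases were led by the wound and stress protein LOC543932 (-5.61 or lower) and by prosystemin, the precursor of the wound signal. The probe set for systemin had 7.16, 6.92 and 6.97 on treated arrays and 10.29, 10.26 and 10.30 on control arrays (-3.27 ± 0.07).

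Among 8 genes of jasmonate synthesis and response 1 was higher and 2 lower (median 0.41). The lipoxygenase TomloxE had 10.16, 10.30 and 10.13 on treated arrays against 6.49, 6.35 and 6.46 on control arrays (3.76 ± 0.07). TomloxE is on this list by its name or title only, and whether it serves jasmonate synthesis was not tested. Allene oxide synthase, aos, which takes lipoxygenase products into jasmonate synthesis, had 6.31, 6.27 and 6.20 on treated arrays against 10.48, 10.45 and 10.55 on control arrays (-4.23 ± 0.06). LEJA1 changed by -3.14 or lower.

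Abscisic acid genes were few, with 2 of 3 higher and 1 lower. NCED1, which cleaves carotenoids in the rate-limiting step of abscisic acid synthesis, was the lower one, at 6.77, 6.85 and 7.08 on treated arrays and 9.80, 9.89 and 10.04 on control arrays (-3.01 ± 0.10). The type 2C phosphatase DIG3 had 10.75, 10.73 and 10.61 on treated arrays against 8.64, 8.52 and 8.48 on control arrays (2.14 ± 0.07). LeAREB, similar to factors that bind abscisic acid response elements, changed by 1.06 and was not called without control replicate 3 (0.97).

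Of 3 genes for dehydrin, LEA and ASR proteins 1 was higher. TAS14, a dehydrin that protects cell structures as tissue dries, had 12.11, 12.30 and 12.26 on treated arrays against 8.11, 8.25 and 8.22 on control arrays (4.03 ± 0.07, adjusted p = 3.2e-10). ASR1 changed by 0.68 and the LEA-like ER5 by -0.70, both under the threshold. Myo-inositol phosphate synthase, Inps, which makes the precursor of inositol, had 6.37, 6.45 and 6.43 on treated arrays against 11.54, 11.55 and 11.67 on control arrays (-5.17 ± 0.06). The phosphatase IMP1, which acts after it, changed by 1.56.

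Of 19 genes for ethylene synthesis, perception and response 4 were higher and 4 lower (median 0.27). The receptors ETR6 and ETR4 changed by 2.91 and 1.10, and LeEIL4, a relative of the EIN3 factors, by 1.52. ETR6 had 8.19, 8.16 and 8.06 on treated arrays against 5.22, 5.16 and 5.31 on control arrays. In synthesis, the ACC oxidase ACO1 changed by 1.60 and ACO6 by -1.20, and the ACC synthase ACS7B by -2.20. The response factor PTI4 changed by -2.19 and LOC778264, similar to green ripe, by -1.39.

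Small heat shock proteins, which hold unfolding proteins, were higher in 3 of 5 cases and lower in 1 (median 2.51). HSP21, the chloroplast member, had 10.79, 10.90 and 10.98 on treated arrays against 5.95, 5.97 and 5.87 on control arrays (4.96 ± 0.07). The genes vis1 and leer-sHSP changed by 3.01 and 2.51. HSP17.4, of cytosolic class II, had 7.67, 7.77 and 7.70 on treated arrays against 10.47, 10.44 and 10.45 on control arrays (-2.74 ± 0.06), and the mitochondrial LEMTSHP changed by -0.81, under the threshold. Of 11 larger chaperones and DnaJ proteins 1 was higher and 2 were lower (median 0.08), namely TFHS1 at 1.75, Lehsp90-2 at -1.54 and BiP/grp78 at -1.11.

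Photosynthesis genes were mostly under the threshold. Of 13 genes 2 were higher and 3 lower, with a median of -0.42, but 10 were lower at an adjusted p under 0.05 alone. At that threshold 7501 of all 10038 probe sets (74.7%) passed in limma, 3369 of them lower. The chlorophyll-binding CAB5 had 9.02, 8.96 and 8.96 on treated arrays against 12.46, 12.44 and 12.43 on control arrays (-3.46 ± 0.06). The carbonic anhydrase ca2 changed by -3.68 and psbF, a photosystem II gene, by -1.82. PSBR, also of photosystem II, had 11.06, 10.91 and 11.21 on treated arrays against 6.84, 6.74 and 6.92 on control arrays (4.23 ± 0.09). For the leaf label CAB4 was read, a light-harvesting gene, which stood at 12.11 to 12.26 on treated arrays and 12.85 to 13.10 on control arrays. Other leaf markers were uneven on control arrays, with CAB5 at 12.43 to 12.46 and PSBR at 6.74 to 6.92. CAB4 alone therefore does not settle the label.

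As markers of other organs, 9 flower, pollen and fruit genes were read, of which 1 was higher and 3 lower. Of the floral MADS-box genes, LeAP1, LeFUL2, LOC543885 and LOC543555, a homolog of APETALA3, were in the reporter range throughout. TPP3, titled flower-specific but similar to gamma-thionins, antimicrobial peptides, had 3.82, 3.67 and 3.89 on treated arrays against 9.09, 9.02 and 9.33 on control arrays (-4.74 or lower). DDTFR18, titled ripening regulated, changed by 2.55, TDR6 by -1.54 and TDR3 by -1.29. Each of these called genes lay above the reporter range in at least 1 group, so the markers were not silent as a set.

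Of 12 carotenoid and terpene genes 6 were lower and 3 higher (median -0.46). After NCED1, the carotene hydroxylase CrtR-b2 changed by -2.44, the mevalonate pathway enzyme HMGR by -1.55 and the phytoene synthase PSY2 by -1.48. The increases were isopentenyl diphosphate isomerase, IPI (1.60), the carotenoid cleavage gene CCD1-2 (1.34) and violaxanthin de-epoxidase, VDE (1.34), which converts xanthophylls under strong light. VDE had 8.90, 8.86 and 8.93 on treated arrays and 7.58, 7.65 and 7.44 on control arrays.

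Antioxidant enzymes were higher in 6 of 12 cases and lower in 1 (median 0.85). The iron superoxide dismutase FESOD had 11.22, 11.29 and 11.28 on treated arrays against 9.26, 9.23 and 9.15 on control arrays (2.05 ± 0.06). The peroxidase CEVI-1 changed by 1.47, dehydroascorbate reductase DHAR1 by 1.38 and the glutathione S-transferase-like LOC543836 by 1.24. The lower member, BI-GST/GPX, a glutathione S-transferase and peroxidase, had 9.02, 8.99 and 8.83 on treated arrays against 11.90, 11.86 and 11.78 on control arrays (-2.90 ± 0.07).

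Among 9 oxidases and metallothioneins, genes of stress respiration, superoxide production and metal binding, 4 were higher and none lower (median 0.77). Alcohol dehydrogenase, ADH2, had 8.76, 8.88 and 8.84 on treated arrays against 4.73, 4.64 and 4.57 on control arrays (4.18 ± 0.07). The alternative oxidase LOC543825, which bypasses part of the mitochondrial electron chain, had 7.77, 7.97 and 7.72 on treated arrays against 4.85, 4.73 and 4.83 on control arrays (3.02 ± 0.08). The NADPH oxidase RBOH1, a source of superoxide, changed by 2.76, and the metallothionein MT3 by 1.47.

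Carbon and nitrogen metabolism moved gene by gene. Of 14 sugar and starch genes 5 were higher and 3 lower (median 0.70). The hexose transporter HT2 had 10.69, 10.58 and 10.49 on treated arrays against 7.46, 7.26 and 7.39 on control arrays (3.21 ± 0.08), whereas ht1 had 5.86, 5.94 and 5.70 on treated arrays against 9.45, 9.36 and 9.54 on control arrays (-3.62 ± 0.08). Sucrose synthase sus3 changed by 2.12, the beta-amylase bmy3, which breaks down starch, by 1.97, and fructokinase Frk1 by 1.96. The starch synthesis gene agpL3 changed by -1.82 and GAL83, a subunit of the SNF1 kinase complex, by -1.51.

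Of 14 genes for amino acids, GABA and polyamines 5 were higher and 3 lower (median 0.54). GABA-TP1, a transaminase that degrades the amino acid GABA, had 11.01, 10.93 and 10.88 on treated arrays against 7.77, 7.68 and 7.74 on control arrays (3.21 ± 0.06). Its isozyme GABA-TP2 had 9.42, 9.30 and 9.38 on treated arrays against 10.75, 10.79 and 10.85 on control arrays (-1.43 ± 0.06). The proline transporter LeProT2 changed by 2.14, asparagine synthetase AS1 by 1.78 and the polyamine enzyme SAMDC by 1.55. Histidine decarboxylase hdc changed by -2.66 and the GABA shunt reductase LeSSR2 by -1.33.

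Of 13 genes for ion and nutrient transport 5 were higher and 1 lower (median 0.45). Ferric-chelate reductase FRO1, which makes iron available for uptake, had 9.60, 9.61 and 9.58 on treated arrays against 7.08, 6.93 and 6.96 on control arrays (2.61 ± 0.06). The metal transporter LeNRAMP3 changed by 1.31, and the ammonium transporter AMT2 by -3.19 or lower. Of 2 aquaporin genes, which code for water channels, LOC778315 changed by -1.11 and LeTIP by -0.22 (adjusted p = 0.0611).

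The ribonuclease rnale, of the kind made under phosphate starvation, had 10.12, 10.20 and 10.14 on treated arrays against 4.83, 4.60 and 4.54 on control arrays (5.50 ± 0.08, adjusted p = 1.22e-10). The other genes on that list did not share its size: ail, similar to IDS4, changed by 1.44, the acid phosphatase PAP1 by -0.33 and TPSI1, named for phosphate starvation, by -2.82. TPSI1 had 6.96, 6.96 and 7.23 on treated arrays and 9.93, 9.85 and 9.82 on control arrays. A list named for phosphate starvation thus had 2 of 4 members higher and 1 lower. The lower member, TPSI1, has a dimmer probe set, which changed by -0.13 and was not called, so that none of the 4 was lower when each gene was read from its dimmest probe set.

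Lipid genes were higher in 3 of 9 cases and lower in 1 (median 0.58). The lipid transfer protein ltpg2 changed by 1.83, the plastid lipid-associated ChrC by 1.21 and the desaturase LeFad7 by -1.41. TSW12, a lipid transfer protein, lay at the threshold (1.00) and was not called under several alternatives. Of 5 phenylpropanoid and tyramine genes 3 were higher and none lower: the lignin enzyme CCR1 (2.19) and the tyramine transferases THT7-8 (1.80) and THT1-3 (1.40), which make wall-bound phenolic amides. THT7-1 changed by 0.34 and the chalcone synthase CHS2 by -0.48, both under the threshold.

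Calmodulin, the calcium sensor, had a large increase: CALM1LE had 11.31, 11.40 and 11.33 on treated arrays against 6.79, 6.65 and 6.60 on control arrays (4.67 ± 0.07). Its probe set can match related transcripts. The calcium-dependent kinase cpk1 changed by 0.53. Of 8 genes of MAP kinase and PEPC kinase signalling none was higher and 2 were lower, PPCK2 (-1.36 or lower), which activates PEP carboxylase, and MAPK10 (-1.54).

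None of 5 clock and light signalling genes passed, from CO1 at -0.71 to CIP2b at 0.91. All 5 had an adjusted p under 0.05 in limma, as did 74.7% of all probe sets. Of 5 translation genes 1 was higher, LOC544055 for elongation factor 1-alpha (1.22), and the ribosomal protein genes rpl38, Gi1 and RPS25 changed by -0.56, -0.56 and 0.20. LOC543683, a ubiquitin conjugating enzyme, changed by 0.11 (adjusted p = 0.127).

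**Figure D3:**
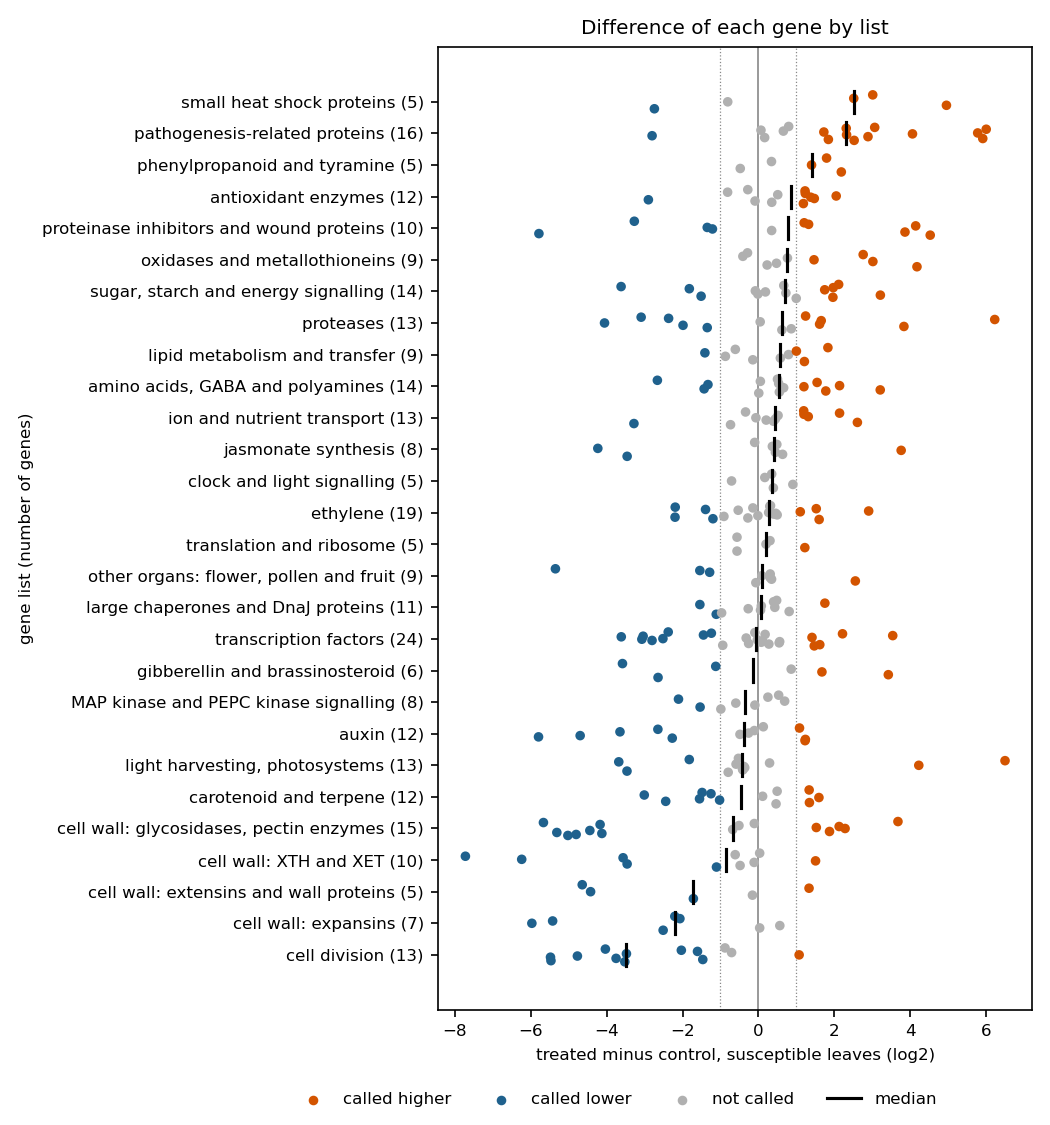
Treated minus control difference (horizontal axis, log2) of each gene, by list (vertical axis, with the number of genes), for the 28 lists with at least 5 genes. Points are genes, orange where called higher, blue where called lower and grey where not called, black bars are medians and dotted lines mark differences of -1 and 1; fitted values are drawn also where the text gives a bound. Medians run from -3.48 for cell division to 2.51 for small heat shock proteins.

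Relatives within a family moved in opposite directions in several of these lists. The pairs drawn by array were chosen after their values were seen, to show this range, and are a description. In each pair the called gene that was higher and the called gene that was lower had groups that did not overlap. The same held for 365 of the 411 genes with a symbol, so it sets these pairs little apart. The widest pair was that of the carbonic anhydrases, with ca3 at 6.50 and ca2 at -3.68; ca2 stood at 8.34, 8.19 and 8.43 on treated arrays and at 11.99, 11.98 and 12.03 on control arrays. The narrowest was that of the ACC oxidases, with ACO1 at 11.52, 11.42 and 11.44 on treated arrays against 9.85, 9.82 and 9.91 on control arrays, and ACO6 at 10.24, 10.30 and 10.31 on treated arrays against 11.50, 11.50 and 11.45 on control arrays.

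**Figure D4:**
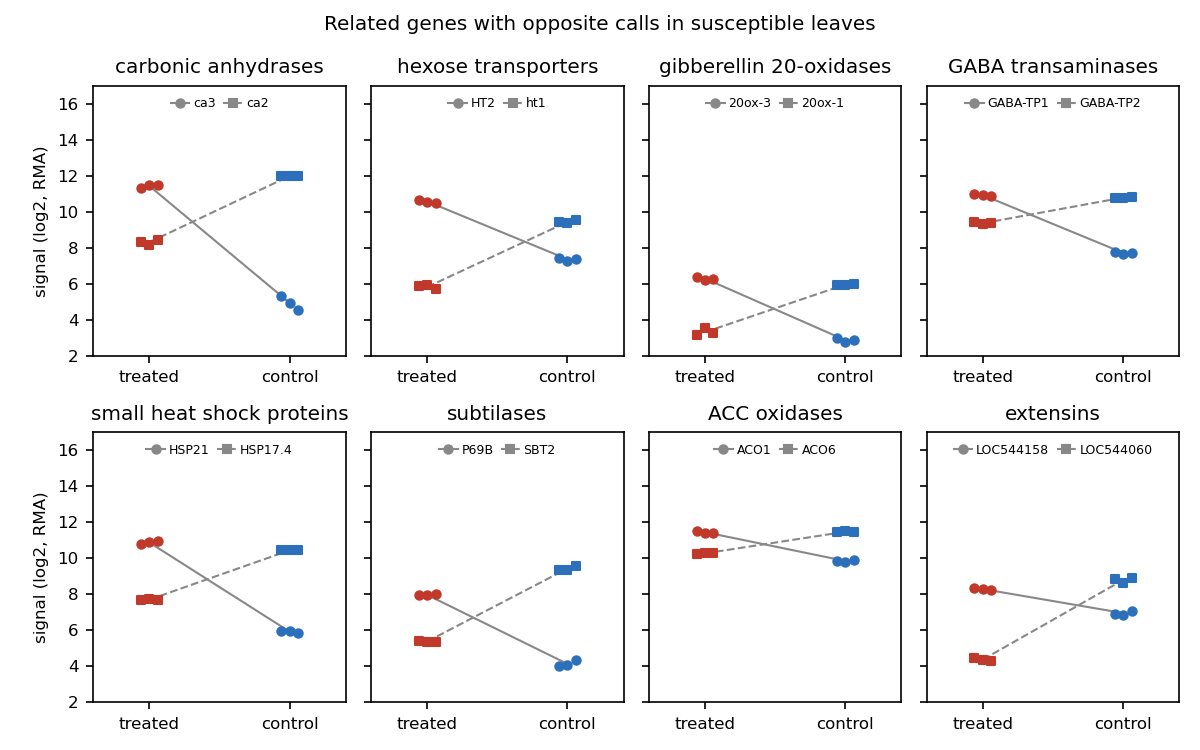
Signal of each array (vertical axis, log2) in treated leaves (red, left) and control leaves (blue, right) for 8 pairs of related genes, the higher member as circles with a solid line and the lower as squares with a dashed line, lines joining group means. In every panel the circles lie higher and the squares lower in treated leaves, as for ca3 at 6.50 and ca2 at -3.68.

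Where a gene had several probe sets, their agreement was counted. Of 40 such genes 22 had the same call on each probe set, 15 had a called and an uncalled one, and 3 had opposite calls. For the proteinase inhibitor LOC543954 the brighter probe set changed by 3.86 and the other by -4.04 or lower. For MT3 the values were 1.47 and -1.07, and for the subtilase sbt4a -3.09 and at least 1.36. The direction of these 3 genes rests on which probe set is read.

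Most probe sets have no symbol here, among them the largest differences on the array. Of the 2 unnamed probe sets with the largest fitted increases, the one with the larger bound had 11.69, 11.63 and 11.57 on treated arrays against 4.25, 4.31 and 4.08 on control arrays (at least 7.33), and the other changed by at least 6.54. The names of these 2 probe sets share their first part, and whether they read different genes was not tested. The unnamed probe set with the largest decrease had 3.80, 3.75 and 3.43 on treated arrays against 12.53, 12.42 and 12.46 on control arrays (-8.07 or lower), and a second one changed by -7.70 or lower. None of these 4 overlapped between groups, as the rule that chose them required.

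The response of susceptible leaves was set against that of tolerant leaves in a fit of 4 group means over the 12 drought arrays. The difference of the responses, tolerant minus susceptible, was called for 2533 probe sets (25.2%). The spread between tolerant replicates was wider, with a median SD of 0.391 on treated and 0.303 on control arrays, against 0.0741 and 0.0852 for susceptible treated and control arrays. A single spread for all 4 groups can therefore make the p-values of this difference, and of the tolerant response, too small. Reporter medians were also higher on tolerant arrays, 3.92 to 4.80, against 2.98 to 3.13 on susceptible arrays. The signal of bioB, a bacterial transcript added as a hybridization control, was 11.34 to 11.61 on tolerant treated and 10.65 to 11.07 on tolerant control arrays, against 5.35 to 6.87 on susceptible treated and 5.68 to 5.86 on susceptible control arrays. The 3′ minus 5′ signal, averaged over the GAPDH, EF1a and actin control probe sets, was 1.59 to 1.74 on tolerant treated and 2.16 to 3.91 on tolerant control arrays, above all 6 susceptible arrays (0.70 to 1.37). The part of these differences between the genotypes' arrays in the results that follow was not tested.

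In tolerant leaves 2872 probe sets were called (28.6%), and 232 of the genes with a symbol (56.4%), 83 higher (20.2%) and 149 lower (36.3%). These calls and the overlaps below rest on the shared spread just described. The overlaps set calls of the 6 susceptible arrays fitted alone against tolerant calls of the 12 drought arrays. Of the 1240 decreases of susceptible leaves 615 were also lower in tolerant leaves (49.6%, and 43.5% of the tolerant decreases), whereas of the 1371 increases 449 were also higher there (32.8%, and 30.8% of the tolerant increases). With both sets of calls from the 12 arrays, an alternative added after seeing the data, 604 of 1182 decreases (51.1%) and 431 of 1264 increases (34.1%) were shared. These shares are a description, and their difference was not tested. Opposite calls were made for 68 probe sets higher in susceptible and lower in tolerant leaves (5.0% of the susceptible increases). The other way there were 65 (5.2% of the susceptible decreases). As the background for all these shares, 1457 of the 10038 probe sets were called higher in tolerant leaves and 1415 lower.

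Cell division shows the shared side. In tolerant leaves 10 of 13 genes were lower and 1 higher, with a median of -2.63, and the responses were called as different for 3 of the 13. Among all genes with a symbol 59.1% were. PR proteins show the other side, with 3 of 16 higher and 8 lower in tolerant leaves (median -1.10). The response was called as lower in the tolerant genotype for 11 of the 16. Antioxidant enzymes had 8 of 12 and amino acid, GABA and polyamine genes 9 of 14 with a lower response in the tolerant genotype. Other lists leaned the other way: the response was higher in the tolerant genotype for 7 of 12 auxin genes and lower for 2, and higher for 10 of 24 transcription factors and lower for 4. Among all genes with a symbol it was lower for 136 (33.1%) and higher for 107 (26.0%). Since the deposited drought table lists probe sets chosen on these samples, these counts are not independent evidence.

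For single genes the contrast was wide. P4 stood at 8.95 ± 0.15 in treated susceptible and 3.17 ± 0.04 in control susceptible leaves, and at 4.32 ± 0.64 in treated tolerant and 8.87 ± 0.12 in control tolerant leaves (SD, n = 3 each). Its control susceptible and treated tolerant levels lay in the reporter range and are not measured levels. The responses differed by -7.34 or lower (limma adjusted p = 7.73e-08). TAS14 moved the same way in both, with a larger response in the tolerant genotype by at least 1.58 (limma adjusted p = 1.8e-05). NCED1, lower by 3.01 in susceptible leaves, changed by 0.12 in tolerant leaves, and IAA10 by 0.51 there.

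**Figure D5:**
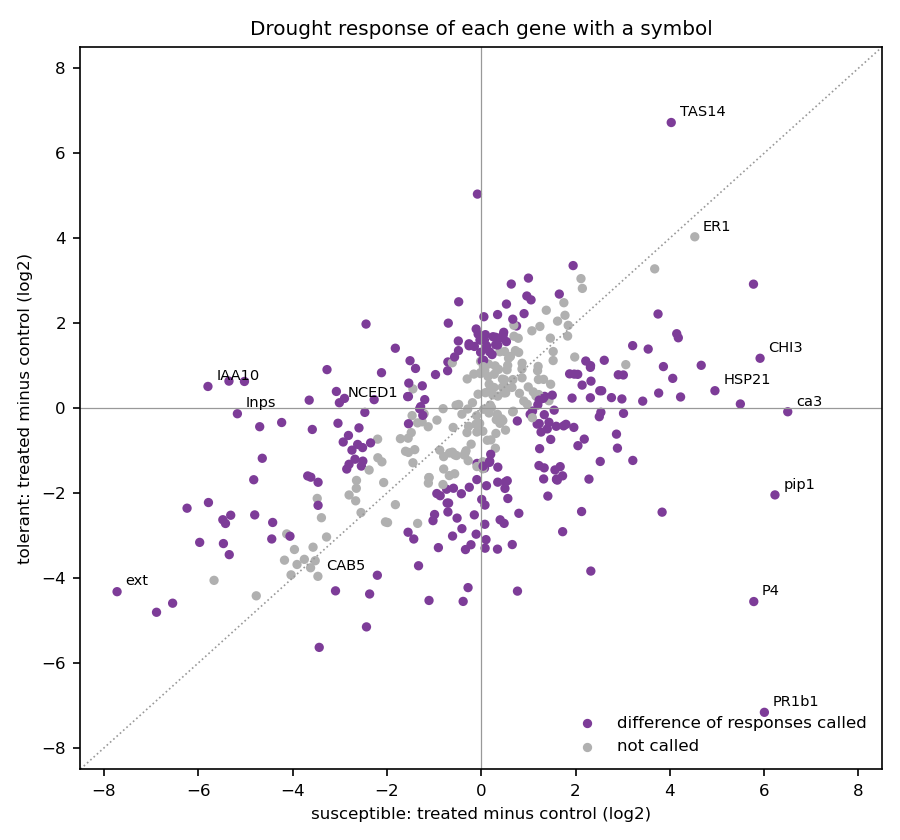
Treated minus control difference of each of the 411 genes with a symbol in susceptible leaves (horizontal axis, log2) and in tolerant leaves (vertical axis, log2), purple where the difference of the responses was called and grey where it was not, with the dotted line marking equal responses. Fitted values are drawn also where the text gives a bound; P4 and PR1b1 lie at the lower right, higher in susceptible and lower in tolerant leaves, and TAS14 lies at the top, higher in both.

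The authors' deposited table gives fold changes for 2215 of the probe sets in susceptible leaves. Their direction was the same as that of the difference computed here for 2146, 129 lay within 0.01 on the log2 scale, and the largest gap was 2.13. No source used here gives the normalization behind that table, which may differ from that of the deposited log2 signals.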

How the data were processed

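The values used are log2 signals per probe set as deposited, for which the submitters' processing notes name Affymetrix Expression Console and RMA 1.0. The sources used here do not say whether all arrays shared 1 normalization. The authors also deposited fold changes as a linear ratio, used for names and a check. Groups and replicate numbers came from the titles.

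Of 10209 probe sets, 108 AFFX controls and 63 reporters were left out. The 10038 others were fitted with limma 3.58.1 in R 4.3.3 (lmFit, eBayes) on the 6 susceptible drought arrays, with Benjamini-Hochberg adjustment; the tolerant response came from all 12 drought arrays. Same-numbered replicates deviated together weakly at most, with correlations of 0.12, -0.01 and 0.05, against -0.10 to 0.03 for unlike numbers. The numbers were therefore not used as pairs in the main fit. Scripts were tested on simulated data. For a bound, arrays under the reporter percentile were raised to it; where the brighter group was in that range as well, no difference is given.

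Symbols were single for 459 probe sets, several for 15 and absent for 9564; 128 of 135 locus symbols were found in the RefSeq gene table (SLM_r2.1), and 59 received another symbol. Each gene was read from its brightest probe set. The rule for named genes took the 15 largest increases and decreases, up to 4 called genes per list and direction (the 2 smallest p-values where none was called), all members of lists of at most 6 genes, and 2 unnamed probe sets each way. The genes and the 35 lists were chosen with earlier results of these data known. Probe sets of BI-GST/GPX, CALM1LE, Dwarf, LOC543683, LOC544060, LOC778315, Lehsp90-2, THOM1, WRKY2 and systemin can match related transcripts. Alternatives covered normalization, filters, the variance prior, array weights, the replicate block, other thresholds and each replicate left out. No genome was used, so no positions or sequences are given.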

Additional observations from a re-analysis of the deposited data

Results flagged for a closer look

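Among the 30 genes with the largest differences in susceptible leaves, the drought response differed from that of the tolerant genotype in 28 by limma's test of the difference itself, against 59.1% of all genes with a symbol, and a value can be given for 21 of these. These 30 genes were chosen by the size of the susceptible difference, which enters this test too, so the count and the signs below follow in part from that choice and are a description. Values are the tolerant minus the susceptible response on the log2 scale.

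The response was lower in the tolerant genotype for 10 of the 21. The PR proteins gave -10.43 or lower for PR1b1, -7.34 or lower for P4, -4.74 for CHI3 and -3.36 for NP24-I. The protease pip1 gave -8.27, the carbonic anhydrase ca3 -6.59, the small heat shock protein HSP21 -4.55 and the photosystem gene PSBR -3.97. LOC543815, without a product in its title, gave -2.86 and threonine deaminase Td -2.40.

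The response was higher in the tolerant genotype for 11. For IAA10 (at least 6.22), TPP3 (at least 5.38) and Inps (5.04) the decrease of susceptible leaves met tolerant responses of 0.51, 0.63 and -0.13. For the wall genes XTH7 (at least 3.35), ext (at least 3.17), exp11 (2.71), LeEXP2 (at least 2.09) and LOC543671 (at least 2.06), for the histone H2B-2 (2.85) and for LOC543672 (1.95) both genotypes were lower under drought, susceptible leaves more so. The dehydrin TAS14 (at least 1.58) was higher under drought in both genotypes.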

How the results depend on the processing

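No difference of a named gene in susceptible leaves changed direction under the alternatives run for single genes. The dimmest probe set of each gene was read for list counts only. For 3 genes the probe sets had opposite calls, and differences in sign without opposite calls were not counted. Reading the dimmest probe set of each gene, and asking that the brighter group lie above the reporter range, were added after seeing the data. With the dimmest probe sets 2 large chaperones were higher, and 2 antioxidant genes, 2 ion transport genes, 0 phosphate starvation genes and 1 gene of the oxidases and metallothioneins were lower, against 1, 1, 1, 1 and 0. Called higher were 12 PR proteins, 6 proteases, 7 antioxidant genes and 4 transcription factors, against 11, 5, 6 and 5. For lipid genes, carotenoid and terpene genes, and oxidases and metallothioneins 2, 2 and 3 were higher, against 3, 3 and 4. Called lower were 4 proteases, 5 inhibitors and wound proteins and 2 photosynthesis genes, against 5, 4 and 3. The count of 2611 calls was 2446 with all 12 drought arrays in the fit, 2615 after repeated quantile normalization, 2601 after median centring, 1997 with limma's treat test and 2589 to 2657 with 1 replicate left out. Without a fold threshold 7501 probe sets passed, 4132 higher and 3369 lower, and list counts moved to 10 higher and 7 lower for ethylene, 10 lower for light harvesting, 9 higher each for sugar and starch, for amino acids and for ion transport, 5 higher for lipids, 4 lower for MAP and PEPC kinases and 7 higher for oxidases and metallothioneins. The treat test left 1 large chaperone lower, and without the dimmest 25% of probe sets 1 of 5 kinases was lower. The difference of responses gave 2217 to 2756 calls with 1 replicate left out, against 2533. The replicate block gave 2611 calls again and changed no call of a named gene. TSW12 was not called after median centring (0.97) or quantile normalization (0.99), nor without treated replicates 1 or 3 or control replicates 1 or 2 (0.98 to 1.00). The treat test also ended the calls of BiP/grp78, ETR4, LOC543684, LOC544070, LOC544142, LOC778315, LeAREB and LeGAI. Signal near background limits the size of differences given as bounds.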
